A study of Mus musculus with 222 samples.

Results

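The 8 genes described here are Vim, Col1a1, Col1a2, Col3a1, Pdgfra, Tagln, Krt19 and Snai1, taken by name from a table of 24391 genes measured in mouse primordial germ cells (PGCs), the cells of the embryo that later give rise to gametes. The rule that names them gives no threshold, and no single measured value sets it; the genes were picked by name with earlier expression results of these libraries known, so their differences between genotypes are given as a description and are not independent evidence of a direction. The question was whether these genes move together, as they would with somatic cells in a sample, or one by one. All 8 genes were found in each of the 3 bulk count tables and both single-cell count tables. Mesenchymal genes is the working name of the group, but 1 of its members, Krt19, encodes a keratin of simple epithelia and is no mesenchymal gene.

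PGCs were sorted as GFP-positive cells from embryos carrying the Oct4-GFP reporter (OG in the labels), which marks germ cells through the Pou5f1 locus. ECKO embryos, labelled Eed -/-, came from OG; Eed fl/fl females and Eed fl/+ males with the BC driver (Blimp1-Cre), which acts in PGCs; Control embryos are labelled wild type, although in such a cross every embryo inherits a floxed allele from its mother, and which Controls carried Cre is not given in the sources used here. The strain label is C57BL/6;129S1/SvlmJ for all groups. XY gonads gave 4 Control and 4 ECKO bulk libraries at E11.5, and 4 Control and 3 ECKO at E13.5. XX gonads at E11.5 gave 3 Control and 4 ECKO libraries, and at E12.5 single cells came from 2 embryos for each sex and genotype, numbered here in the order of their columns. The protein deleted in ECKO, EED, holds together the histone methyltransferase PRC2 (Polycomb repressive complex 2), whose mark on lysine 27 of histone H3 keeps developmental genes silent. The p-values rest on the spread among samples of a group, which may be technical in part, since nothing states how many embryos stand behind a bulk library.

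Mesenchymal cells are loosely arranged cells that make fibrillar matrix: type I collagen is built from the chains of Col1a1 and Col1a2, type III collagen from Col3a1, and Vim encodes their intermediate filament. In the fetal gonad, interstitial cells between the cords of germ and supporting cells are the usual source of these collagens and of Pdgfra, a receptor for platelet-derived growth factors. Tagln binds actin in smooth muscle and other contractile cells, and Snai1 is a zinc finger repressor known for its part in epithelial to mesenchymal transition. PGCs are sorted from among these cells, so somatic RNA can reach a germ cell library, and in bulk samples fewer cells of a type and less RNA per cell cannot be told apart.

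Promoters of the 4 members that show the contrast best are printed here from RefSeq sequence (GRCm38.p6, a later build than the mm9 of the submitters' processing notes); each line holds the 250 bases before the start of the gene, on the plus strand, with CpG dinucleotides in capitals, because mammalian PRC2 is known mainly from CpG-rich promoters. Col1a2 and Col3a1 are shown because they varied together between libraries, and Snai1 and Vim because they lay on opposite sides of the Controls at E13.5.
Snai1, chr2:167537945-167538194: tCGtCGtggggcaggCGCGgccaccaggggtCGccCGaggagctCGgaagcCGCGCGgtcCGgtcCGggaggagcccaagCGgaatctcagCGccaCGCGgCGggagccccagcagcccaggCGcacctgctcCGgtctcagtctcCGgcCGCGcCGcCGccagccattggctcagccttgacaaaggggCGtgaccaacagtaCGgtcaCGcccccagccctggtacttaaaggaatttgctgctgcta
Vim, chr2:13574061-13574310: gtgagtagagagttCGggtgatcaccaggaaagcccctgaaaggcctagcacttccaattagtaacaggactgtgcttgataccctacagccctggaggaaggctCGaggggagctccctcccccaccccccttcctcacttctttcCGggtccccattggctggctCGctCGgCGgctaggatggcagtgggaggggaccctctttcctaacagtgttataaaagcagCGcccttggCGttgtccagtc
Col1a2, chr6:4505368-4505617: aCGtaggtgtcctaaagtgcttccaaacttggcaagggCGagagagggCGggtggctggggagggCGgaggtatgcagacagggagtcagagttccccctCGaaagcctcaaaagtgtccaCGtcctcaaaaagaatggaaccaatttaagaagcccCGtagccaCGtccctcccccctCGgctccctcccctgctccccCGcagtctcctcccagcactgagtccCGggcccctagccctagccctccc
Col3a1, chr1:45311288-45311537: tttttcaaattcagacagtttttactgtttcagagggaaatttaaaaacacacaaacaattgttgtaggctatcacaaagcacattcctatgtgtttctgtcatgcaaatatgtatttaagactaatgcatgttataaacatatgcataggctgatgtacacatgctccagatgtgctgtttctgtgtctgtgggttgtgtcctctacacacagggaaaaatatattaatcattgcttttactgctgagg
These windows held 27 CpG dinucleotides for Snai1, 11 for Col1a2, 8 for Vim and 0 for Col3a1, against a median of 6 over 32851 promoter windows of the same length. The 2 collagen promoters thus differed in CpG content although their genes varied together. On either strand, TATAAA occurred once in the windows of Vim and Col3a1 and in 12.4% of all windows, and CCAAT occurred in those of Snai1, Vim and Col1a2 and in 33.8% of all. The Snai1 window also held 1 copy of CACCTG, an E-box of the kind Snail proteins bind, which 17.2% of all windows held. Of the 8 members, 5 matched an entry. Pdgfra, which like Snai1 was higher in ECKO at E13.5, matched but is not printed. The window of its entry, chr5:75152001-75152250, lies past the annotated start of the gene at 75151322. Its 4 CpG dinucleotides thus do not describe the bases before the gene and are not set against the median of 6. Col1a1, Tagln and Krt19 are named only.

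Bulk libraries held 415291 to 14974853 counts, with the shallowest in E11.5 XX, and 127 of 192 single cells passed the depth filter. Levels of single genes are given in CPM, the counts of a gene scaled to a common library total and by the TMM factor of its table, and sums of markers in CPM of the plain total. Each table was scaled on its own, so levels of different stages are not on 1 scale. For each sex and stage, all ECKO samples had less Eed RNA than all Controls. In E11.5 XY its ECKO range was 16.6 to 49.6 CPM against 81.2 to 144.6 CPM, in E11.5 XX it was 12.51 to 27.8 CPM against 76.9 to 89.4 CPM, and at E13.5 it was 2.98 to 12.7 CPM against 57.5 to 119.8 CPM. In the E12.5 embryo sums Eed lay at 7.10 to 21.99 CPM in ECKO against 40.7 to 62.1 in Controls. Summed germ cell identity genes (10 genes, among them Dppa3, Ddx4 and Dazl) reached 1743 to 4315 CPM in the bulk libraries, with the lowest sum in E11.5 XX ECKO library 4, so the libraries carried the markers of their labelled cell type.

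At E11.5 the collagen members and Pdgfra were highest in 1 ECKO library of each sex, the library numbered 4; in XY, Col3a1 exceeded the next library, Control 1, by only 1.53 times. Col1a2 was at 11.2, 1.59, 0.452 and 2.25 CPM in the XY Controls and at 1.85, 2.58, 11.7 and 120.4 CPM in XY ECKO. In E11.5 XX it was at 10.1, 17.7 and 0.681 CPM in Controls and at 27.1, 3.85, 5.00 and 224.4 CPM in ECKO. Apart from the libraries numbered 4, the ECKO values reached at most 11.7 CPM in XY and 27.1 CPM in XX, and overlapped with the Controls. Col3a1 repeated this shape, with 48.2, 1.59, 3.04 and 1.22 CPM in XY Controls against 1.61, 3.18, 12.9 and 73.8 CPM in XY ECKO. In XX its Controls stood at 10.1, 32.7 and 1.70 CPM, and its ECKO libraries at 40.5, 10, 5.36 and 358 CPM. Control 1 of the XY series was also high for Col3a1, so the groups overlapped in both sexes.

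Col1a1 reached 75.5 CPM in XY ECKO 4 and 178.3 CPM in XX ECKO 4, which was 9.39 and 7.07 times the next highest library of the same table. Pdgfra reached 39.5 CPM in XY ECKO 4 against at most 10.49 CPM elsewhere in XY, and 214.5 CPM in XX ECKO 4 against at most 22.3 CPM elsewhere in XX. Vim, which all E11.5 libraries carried at 38.2 CPM or more, peaked in the same libraries with a smaller spread: 162.6 CPM in XY ECKO 4 against 38.2 to 92.7 CPM in the other XY libraries, and 319.5 CPM in XX ECKO 4 against 56.2 to 109.8 CPM in the other XX libraries. Tagln peaked in XX ECKO 4 as well, at 15.6 CPM, but in XY its highest value, 4.22 CPM, was in Control 1. These peaks are the triangles in the plot of members by library.

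**Figure D1:**
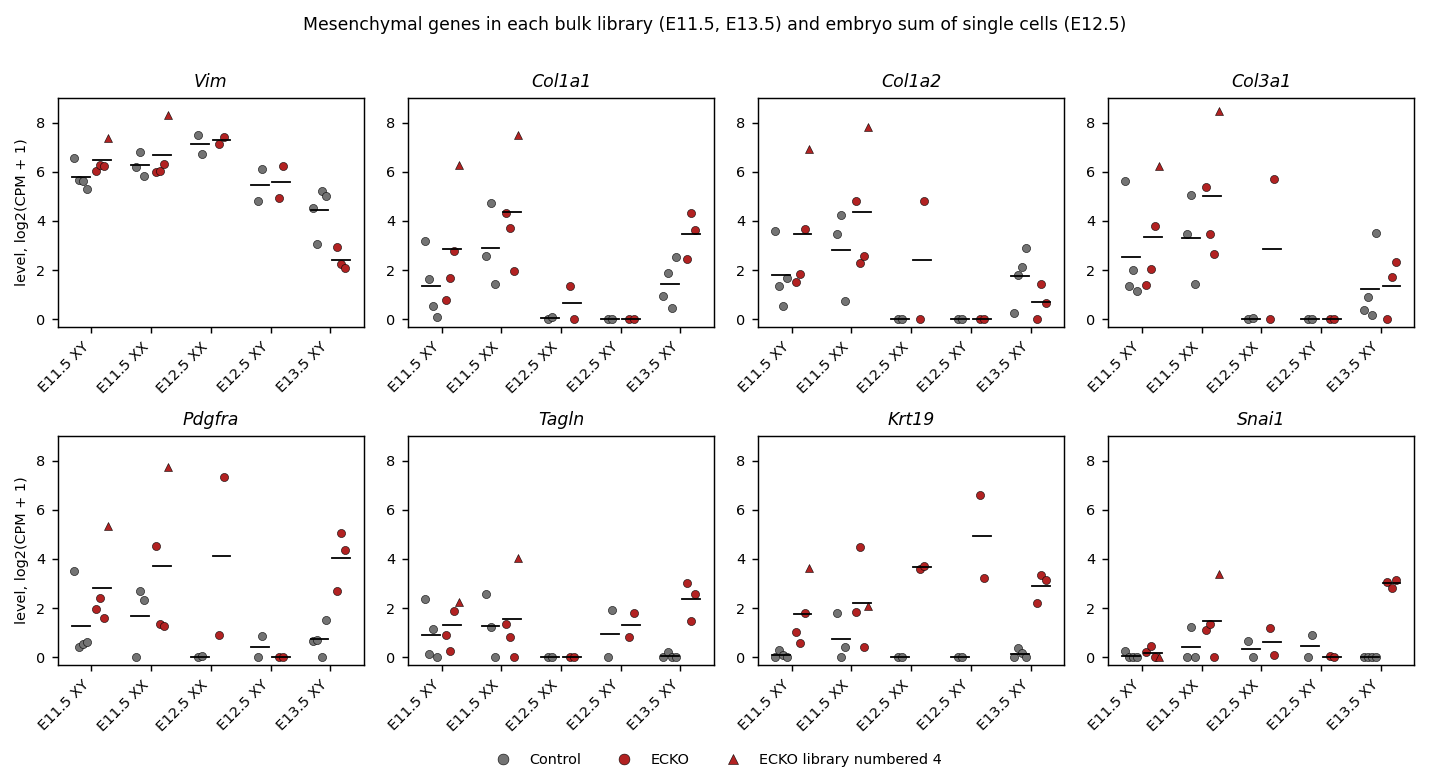
Levels of the 8 members as log2(CPM + 1) on the vertical axis in each bulk library (E11.5, E13.5) and each E12.5 embryo sum of single cells; grey is Control, red is ECKO, triangles are the ECKO libraries numbered 4 and black lines are group means. The 2 triangles top the 3 collagen panels and those of Vim and Pdgfra at E11.5, while at E13.5 all ECKO points of Pdgfra, Tagln, Krt19 and Snai1 lie above the Controls and those of Vim below.

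No member was called at E11.5 by edgeR's quasi-likelihood test with adjustment over all genes. In XY, where 2.13% of 12497 tested genes were called, 0 of the 6 members that passed the low-count filter were, with 3 of the 6 at an unadjusted p under 0.05, and the log2 fold changes were 3.15 ± 1.11 (SE) for Col1a2, 2.99 ± 1.25 for Col1a1, 2.05 ± 1.13 for Pdgfra, 0.76 ± 1.09 for Col3a1, 0.72 ± 0.31 for Vim and 0.44 ± 1.27 for Tagln. In XX, where 0.172% of 11058 genes were called, 0 of the 5 members that passed were, with 3 of the 5 at an unadjusted p under 0.05, and the values were 3.92 ± 1.47 for Pdgfra, 2.90 ± 1.32 for Col1a2, 2.81 ± 1.28 for Col3a1, 2.27 ± 1.19 for Col1a1 and 0.73 ± 0.53 for Vim. DESeq2 also called 0 members in both tables. Without ECKO 4, the XY values became 0.48 for Col1a2, 0.15 for Col1a1, 0.06 for Pdgfra, -1.20 for Col3a1, 0.33 for Vim and -0.12 for Tagln. In XX the same omission left 0.44 for Col1a2, 0.35 for Col3a1, 0.07 for Col1a1 and -0.21 for Vim, and Pdgfra no longer passed the filter. Leaving out XY Control 1 in turn raised Pdgfra to 4.74, the 1 member then called (edgeR adjusted p = 0.039). The effect of ECKO on the 8 members was not called different between XX and XY: of 14185 genes, 0% were called in that interaction test in either direction, with 747 genes and 0 members at an unadjusted p under 0.05.

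The somatic markers of the same libraries were highest where the collagens were. The 18 interstitial markers, which hold none of the members, summed to 617.7 CPM in XY ECKO 4 against 87.6 to 216.7 CPM in the other XY libraries, and to 1601 CPM in XX ECKO 4 against 62.8 to 396 CPM in the other XX libraries. Defining markers of the list peaked in the same libraries: Nr2f2 stood at 22.1 and 72.6 CPM in ECKO 4 of XY and XX, against at most 7.25 and 10.4 CPM in the others, and Dcn at 21.1 and 17.2 CPM against at most 1.70 and 0.389 CPM. The sums of 17 supporting cell markers (81.9 and 241.4 CPM) and of 10 endothelial markers (423 and 506 CPM) were also the highest of their tables there, and the germ cell sums (2354 and 1743 CPM) the lowest. Of the 18 interstitial markers, 0 were at 0 counts in XY ECKO 4 and 1 was in XX ECKO 4. The part of other cells in the E11.5 differences was not tested beyond the fits without ECKO 4.

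Over the 22 bulk libraries, the deviation of each member from its group mean was compared with that of 4 library measures, 32 relations in all, each with a two-sided permutation test that shuffles libraries within groups. The 3 collagen members and Pdgfra followed the interstitial sum: Pearson's r was 0.924 for Col1a1 (Spearman's rho 0.901, adjusted permutation p = 0.00112), 0.893 for Col3a1 (rho 0.897, adjusted permutation p = 0.00144), 0.884 for Col1a2 (rho 0.820, adjusted permutation p = 0.00192) and 0.823 for Pdgfra (rho 0.744, adjusted permutation p = 0.00668). Without the 2 libraries farthest from the median of that sum, XX ECKO 4 and XX Control 3, r was 0.893, 0.836, 0.798 and 0.863. The same 4 genes fell as the germ cell sum rose, with r between -0.801 and -0.768. No member was called against log10 total counts, where r lay between -0.456 and 0.275.

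The other 4 members had lower r with the interstitial sum. Tagln had r = 0.729 (rho 0.630, adjusted permutation p = 0.0197), which fell to 0.442 (adjusted permutation p = 0.28) without those 2 libraries, so its relation rested on them. Snai1 had r = 0.638 (rho 0.308, adjusted permutation p = 0.0859) and 0.176 without them, and Vim r = 0.557 (rho 0.433, adjusted permutation p = 0.0682) and 0.212 without them. Krt19 had r = 0.319 (rho 0.384, adjusted permutation p = 0.512). Within tables, r with the interstitial sum at E11.5 was 0.947 to 0.994 for the 3 collagens and 0.790 to 0.905 for Pdgfra. At E13.5 it was 0.635 for Col1a1, 0.432 for Col3a1, 0.0905 for Col1a2, -0.554 for Tagln, -0.667 for Vim and -0.188 for Snai1. Pdgfra and Krt19 are not in this E13.5 list. Between members at E13.5, Pdgfra had r = 0.915 with Col1a1, 0.802 with Col3a1, 0.714 with Krt19 and 0.537 with Col1a2. Its r was -0.735 with Tagln, -0.423 with Snai1 and -0.295 with Vim. Within tables, relations with the interstitial sum were called for 3 members in E11.5 XX (the collagens) and for 0 in each of the XY tables.

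**Figure D2:**
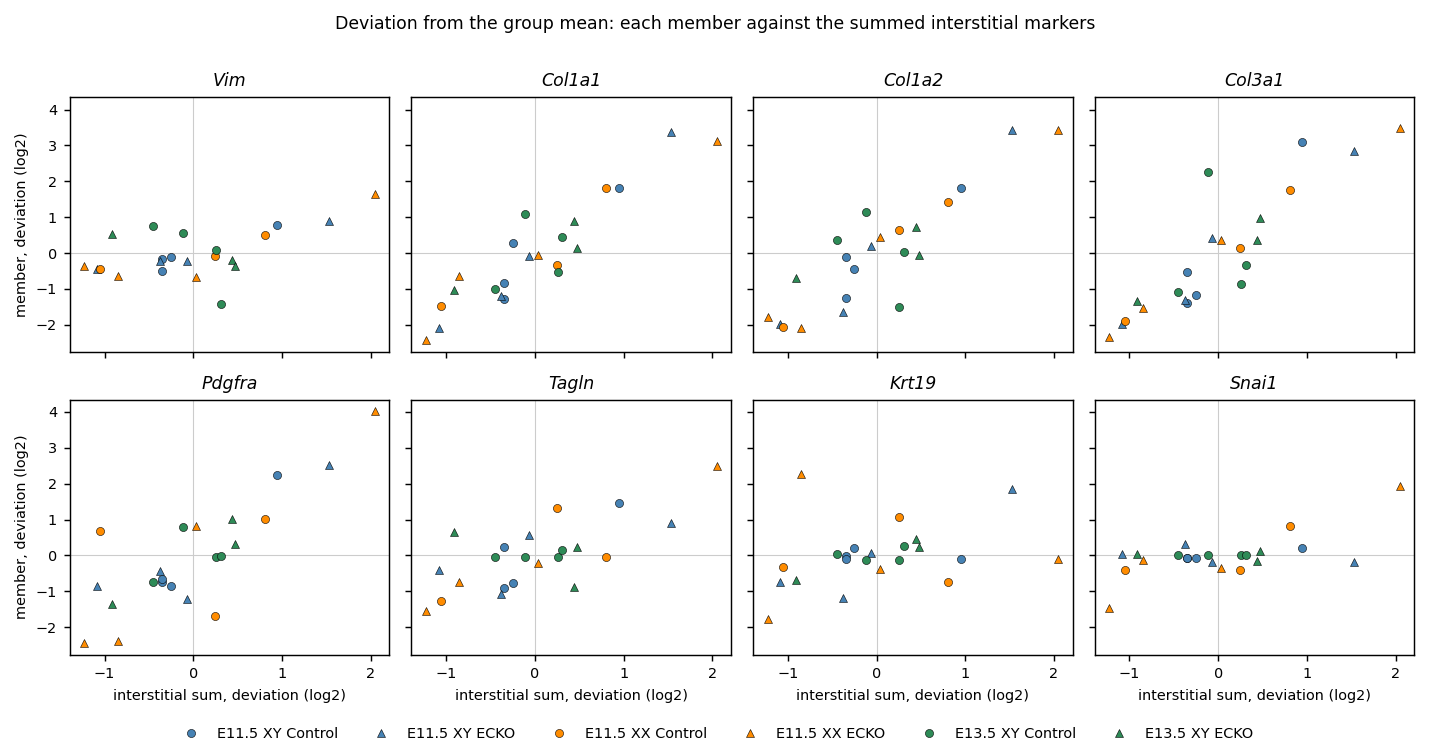
Deviation of each member (vertical axis, log2) and of the summed interstitial markers (horizontal axis, log2) from the group mean in the 22 bulk libraries; colours are tables, circles Control and triangles ECKO. The collagen panels and Pdgfra slope upward, with r from 0.823 to 0.924, while r is 0.319 for Krt19, and that of Snai1 and Vim falls to 0.176 and 0.212 without the 2 farthest libraries.

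Members were also set beside all other genes by the correlation of these deviations, among 10077 genes with a mean of at least 5 CPM. The closest genes to Col3a1 were Lama4 (r = 0.937), a laminin chain, Col1a1 (0.928) and Nr2f2 (0.916), a transcription factor of interstitial cells. Col1a1 had Nnat, Col3a1 and Capn6 nearest, Col1a2 had Nrep, Nfib and Nnat, and Pdgfra had Flna, Nnat and Fendrr. Snai1 stood with genes of heart muscle, Myl2 (0.953), Tnnt2 (0.914) and Actc1 (0.82). These r lean on 1 library, E11.5 XX ECKO 4, where Snai1 was at 9.61 CPM against at most 1.54 CPM in the other XX libraries. Krt19 had other nearest genes, Saraf (0.838), Uck1 and Dbndd2. Tagln had Cux1, Phactr2 and Pdgfrb, and Vim had Cacna2d1, Kmt2e and Vcan. Between members, Col1a1 and Col3a1 had r = 0.928, Col1a1 and Col1a2 had 0.906, and Krt19 had 0.0446 with Snai1 and 0.0104 with Vim. These correlations share libraries and are given as a description.

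Krt19 peaked with the collagens in XY but not in XX. It was at 0, 0.227, 0.0646 and 0 CPM in XY Controls and at 1.05, 0.496, 2.54 and 11.4 CPM in XY ECKO. In XX it was at 2.52, 0 and 0.340 CPM in Controls and at 2.60, 21.5, 0.357 and 3.31 CPM in ECKO, with the peak in ECKO 2, whose interstitial sum of 213.8 CPM was within the range of the Controls. Each XY ECKO library lay above each XY Control, as did those of 5.11% of genes with enough counts, whereas the XX groups overlapped (7.67% of genes had every ECKO library higher there). The XY Controls held 3 Krt19 counts in all, and the ratio of pooled CPM was 58.8 with a counting interval of 19.7 to 288. The gene did not pass the low-count filter of either E11.5 test. Snai1 did not either: it was at 0 to 0.397 CPM throughout XY and at most at 1.54 CPM in XX apart from XX ECKO 4, at 9.61 CPM.

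At E12.5, single cells showed which members occurred in the same cell. Cells were kept at 50000 or more counts and 1500 or more genes, which left 13 to 22 cells per embryo, and a gene was called present at 10 CPM or more. Vim was the common member, present in 38 of 65 Control cells (58.5%) and 37 of 62 ECKO cells (59.7%). Its embryo sums were 178.8 and 105.1 CPM in XX Controls, 139.3 and 171.5 CPM in XX ECKO, 27.4 and 67.5 CPM in XY Controls, and 29.2 and 74.1 CPM in XY ECKO. The genotypes overlapped in both sexes, and all Vim sums were higher in XX than in XY. XX and XY cells stand in separate count tables, so sex and table cannot be told apart, and this difference was not tested.

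Krt19 was present in ECKO cells alone, in all 4 ECKO embryos. In XX ECKO it was present in 4 of 13 cells (30.8%, exact Clopper-Pearson 95% interval 9.09 to 61.4) and 1 of 13 cells. In XY ECKO it was present in 5 of 18 cells (27.8%, interval 9.70 to 53.5) and 1 of 18 cells. That made 11 of 62 ECKO cells (17.7%, interval 9.2 to 29.5) against 0 of 65 Control cells, where a floor of 3 counts allows a share of up to 4.62% (exact Clopper-Pearson 95% upper limit 5.5). These intervals cover counting error only. Its level in the 11 cells ran from 10.9 to 633.6 CPM. With each cell thinned to 50000 counts 10 ECKO cells had a Krt19 count, and at a minimum of 50 CPM 6 held it.

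The Krt19 cells carried germ cell genes. All 11 had 7 to 10 of the 10 germ cell identity genes present (median 9), which is within the range of Control cells, and at most 2 of 18 interstitial markers, as in Control cells. They had up to 4 of 17 supporting cell markers present in XX and up to 1 in XY, against at most 1 in any Control cell. A list of 9 coelomic epithelium markers, which holds Krt7, Krt8 and Krt18, was summed per embryo over all kept cells. It reached 349.9 to 407.6 CPM in XX ECKO against 47.07 to 126.0 CPM in XX Controls. In XY it reached 235.2 to 309.8 CPM in ECKO against 46.96 to 139.4 CPM in Controls. In each ECKO embryo 4 of the 9 markers were at 0 counts. The log2 values in XX and XY were 10.69 and 2.20 for Krt7, 3.13 and 9.21 for Krt8, and 2.05 and 1.27 for Krt18. Those of the other tested markers were 9.40 and 2.11 for Aldh1a2 and 0.48 and -1.35 for Lrrn4. None of these was called by edgeR. The part of RNA from supporting or coelomic epithelium cells was not tested. Vim was present in 7 of the 11. Col1a1 was present in 1 of them, at 20.4 CPM, which was the single Col1a1 cell among all 127.

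The embryo sums of Krt19 were 0 in all 4 Controls, 11.1 and 12.1 CPM in XX ECKO, and 96.8 and 8.43 CPM in XY ECKO. Against a floor of 3 counts over the Controls this was at least 216.4-fold higher in XX and at least 515-fold higher in XY. It was not called by edgeR (adjusted p = 0.113 and 0.374), where 0.0215% of 13956 genes were called in XX and 0.00717% in XY, and 0 of the 5 members tested. DESeq2 gave adjusted p = 2.18e-06 and 1.11e-07, and edgeR without the low-count filter 6.82e-07 and 8.81e-08. With sums of 0 in all Controls, Krt19 could enter these tests only through the ECKO embryos, so its direction was fixed. With 1 embryo left out in turn, the edgeR adjusted p ranged from 0.00397 to 0.115 in XX and from 0.00132 to 0.615 in XY, and Krt19 was called in 6 and 3 of 8 fits.

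Col1a2, Col3a1 and Pdgfra occurred together in 1 cell, which did not hold Col1a1. It came from XX ECKO embryo 2 and held Vim at 1168 CPM, Pdgfra at 1388 CPM, Col3a1 at 445 CPM and Col1a2 at 240.2 CPM, with 1885863 counts. This cell had 8 of 18 interstitial and 8 of 17 supporting cell markers present but 3 of 10 germ cell genes, and its interstitial markers summed to 1781 CPM against 167.6 CPM for the germ cell genes. No other kept cell had Col1a2 or Col3a1 present. The Pdgfra sum of that embryo, 158.1 CPM, came almost wholly from it: without the cell the embryo held 7 counts, and the XX value became 4.90 on the log2 scale (edgeR adjusted p = 0.604).

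Pdgfra was also present in 2 other XX ECKO cells, at 85.5 and 10.4 CPM. Snai1 was present in 1 cell, at 14.3 CPM in the XX ECKO cell that had Pdgfra at 85.5 CPM. Tagln was present in 1 XY Control cell (29.9 CPM) and 2 XY ECKO cells (13.4 and 54.1 CPM), all 3 with Vim. Each of the cells with Snai1 or Tagln had 6 to 9 germ cell genes present.

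**Figure D3:**
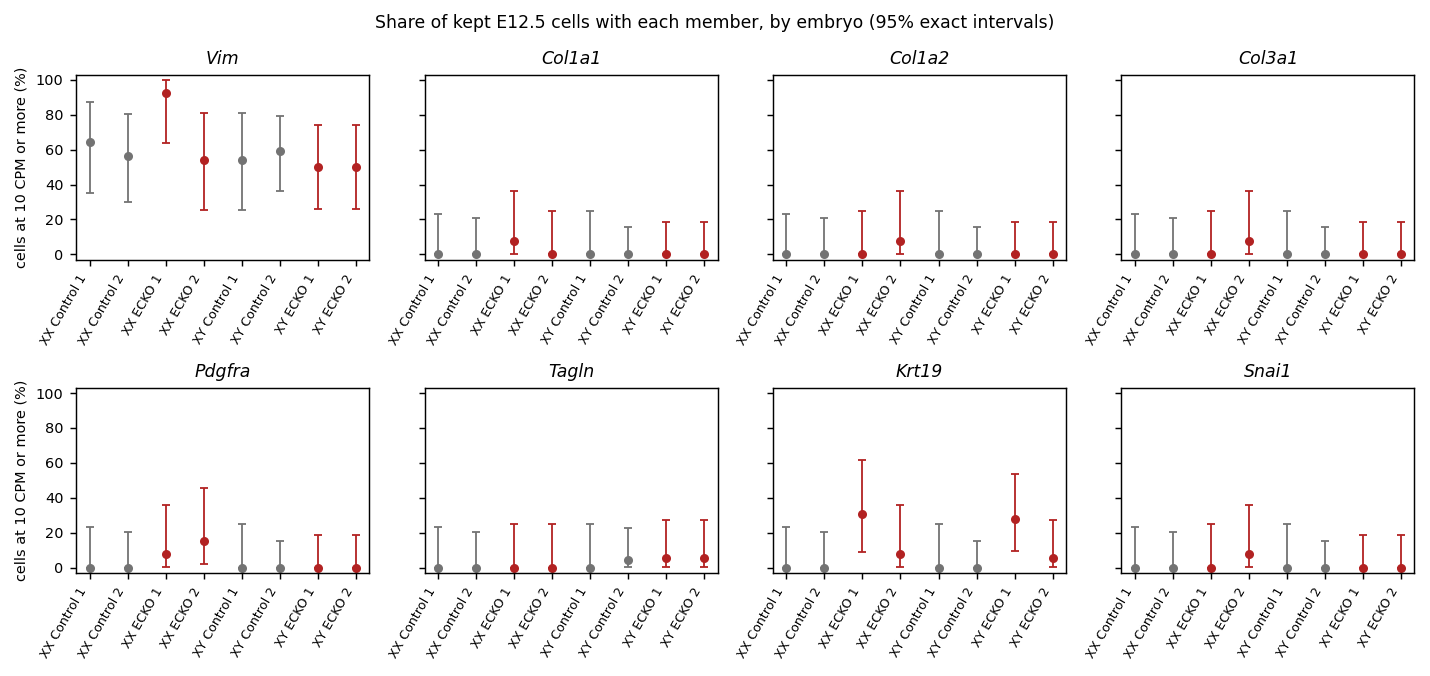
Percentage of kept E12.5 cells in which each member was present at 10 CPM or more (vertical axis), per embryo, with exact 95% intervals for counting error; grey is Control and red is ECKO. Vim is present in 37 of 62 ECKO and 38 of 65 Control cells, and Krt19 in 11 ECKO and 0 Control cells.

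**Figure D4:**
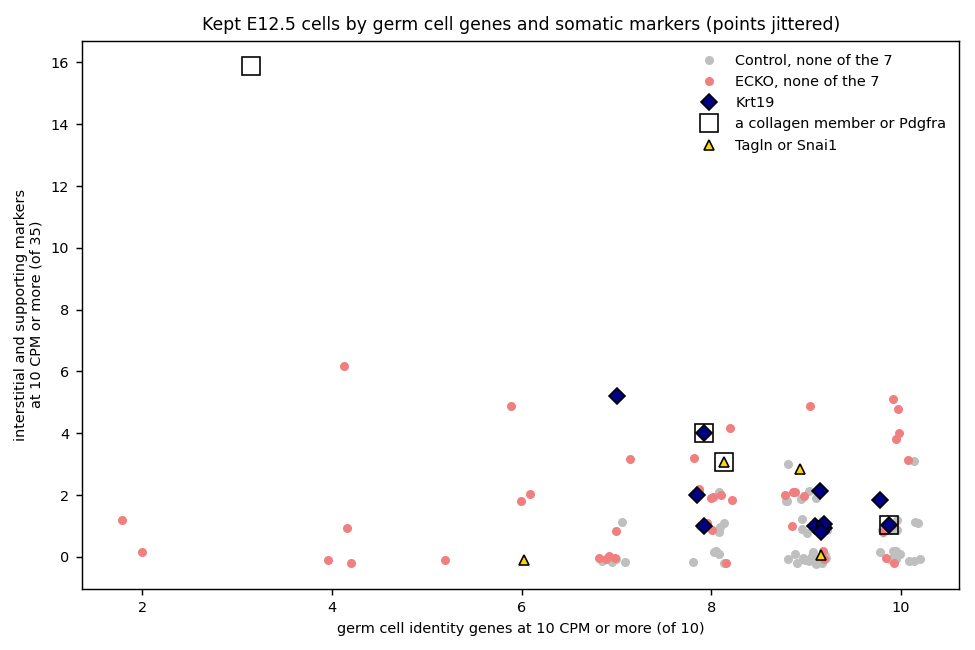
Each kept E12.5 cell by how many of 10 germ cell identity genes (horizontal axis) and of 35 interstitial and supporting cell markers (vertical axis) it held at 10 CPM or more, with points jittered; diamonds mark Krt19, squares a collagen member or Pdgfra, and triangles Tagln or Snai1. The 11 Krt19 cells lie at 7 to 10 germ cell genes, while the cell with 4 members stands apart at 3 germ cell genes and 16 somatic markers.

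At E13.5 Col1a2 and Col3a1 overlapped between genotypes, and 4 members other than the collagens were called higher in ECKO. Col1a1 had a mean of 11.67 CPM in ECKO and 2.21 CPM in Controls and was not called. In XY, 4.90% of 12336 genes were called and 2.99% were called higher. All 8 members were tested and 4 were called higher in ECKO: Snai1, Tagln, Krt19 and Pdgfra. These held 0, 2, 5 and 23 counts over the 4 Controls, and passed the low-count filter through the ECKO libraries. Genes of this kind could hardly be called lower, so their direction and adjusted p are a description. Snai1 was at 0 counts in all 4 Controls and at 7.28, 6.14 and 7.79 CPM in ECKO, at least 83.7-fold higher against a floor of 3 counts over the Controls (edgeR adjusted p = 0.0223). Pdgfra was at 0.607, 0.639, 0 and 1.90 CPM in Controls and at 5.49, 32.3 and 19.7 CPM in ECKO (log2 fold change 4.65 ± 1.17, SE; edgeR adjusted p = 0.0426). Krt19 was at 0, 0.319, 0.122 and 0 CPM in Controls and at 3.58, 9.12 and 7.79 CPM in ECKO (log2 fold change 5.65 ± 1.43, SE; edgeR adjusted p = 0.043). All ECKO libraries were above all Controls for each of these genes, as for 12.3% of genes with enough counts. Tagln had 2 counts over the 4 Controls and stood at 7.04, 1.78 and 5.03 CPM in ECKO, a pooled ratio of 79.7 with a counting interval of 21.6 to 664 (edgeR adjusted p = 0.0436). The 3 levels of Snai1 were close to each other, while Pdgfra was lowest in ECKO 1, where Tagln was highest.

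Vim and the collagens were not called. Vim was at 22.3, 7.27, 36.4 and 31.5 CPM in Controls and at 6.80, 3.77 and 3.24 CPM in ECKO. Every ECKO library was below every Control, as for 11.3% of genes with enough counts (12.3% had every ECKO library higher), and the log2 value of -2.40 ± 0.75 was not called (edgeR adjusted p = 0.0839; DESeq2 adjusted p = 0.00747). Col1a2 was at 0.202, 2.47, 3.43 and 6.55 CPM in Controls and at 0, 1.69 and 0.568 CPM in ECKO. Col3a1 was at 0.303, 0.878, 0.122 and 10.4 CPM in Controls and at 0, 2.28 and 3.97 CPM in ECKO. These 2 chains overlapped between genotypes (log2 values -2.04 ± 1.56 and -0.45 ± 1.69, edgeR adjusted p = 0.47 and 0.903). Col1a1 was at 0.910, 2.71, 0.367 and 4.86 CPM in Controls and at 4.41, 19.3 and 11.3 CPM in ECKO, where ECKO 1 overlapped with the Controls (2.41 ± 1.05, edgeR adjusted p = 0.197). The 2 genes of type I collagen, which correlated at 0.906 over all libraries, thus had log2 values of opposite sign at E13.5, neither of them called.

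The 4 calls at E13.5 did not hold in most fits with 1 library left out. With Control 1, Control 4, ECKO 2 or ECKO 3 left out, 0 of the 8 members were called, and without Control 2 only Snai1 was; without Control 3 the count was 4 and without ECKO 1 it was 5, with Vim added. Over these 7 omissions the edgeR adjusted p reached 0.0825 for Snai1, 0.133 for Tagln, 0.142 for Krt19 and 0.187 for Pdgfra, and all 4 log2 values kept their sign.

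Interstitial markers at E13.5 gave the following values beside these results, whose part was not tested. The sum of all 18 was 117.7 to 309 CPM in ECKO and 157.6 to 267.7 CPM in Controls, so the ranges overlapped. In ECKO, Nr2f2 was at 0, 1.59 and 0.243 CPM, Tcf21 at 0, 0.198 and 0 CPM and Dcn at 0.119, 0.0991 and 0.649 CPM, none above the highest Control for Nr2f2 (6.55 CPM) and Dcn (2.32 CPM). Gli1 was at 9.18 to 18.6 CPM over the 3 ECKO libraries against 0 to 3.35 CPM in Controls, and Dlk1 at 19.4 and 29.3 CPM in ECKO 2 and 3 against 0 to 1.27 CPM in Controls. In ECKO 1, Dlk1 was at 0. The germ cell sum was lower in ECKO, 1910 to 2912 CPM against 3610 to 4315 CPM.

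Genes of the related lists were also called at E13.5, where 4.90% of all 12336 tested genes were called and 2.99% were called higher. The median log2 value was 3.53 over the 8 members and 0.05 over all genes tested. This is a description, since the members were chosen with results known and the members called passed the filter through ECKO. Of 34 collagen and matrix genes 25 were tested and 2 rose: Col12a1, a collagen associated with fibrils, at 0 counts in Controls and at 5.49, 1.88 and 3.00 CPM in ECKO, and Col4a1, a basement membrane collagen, with a log2 fold change of 3.40 (edgeR adjusted p = 0.0416 and 0.05, the latter just under the threshold before rounding). Col4a1 was at 0.122 to 7.18 CPM in Controls and at 21.9 to 52.4 CPM in ECKO. Col12a1, with 0 Control counts, entered the test only through the ECKO libraries. Among 16 actin genes, 11 were tested and 2 rose, Myl9 (5.47) and Tagln2 (2.62), a light chain of contractile myosin and a relative of Tagln (edgeR adjusted p = 0.0493 and 0.0258). Of 16 regulators of epithelial to mesenchymal transition, 8 were tested and 0 were called by edgeR, with 1 at an unadjusted p under 0.05. Esrp1, an epithelial splicing factor, fell by 1.83 on the log2 scale (edgeR adjusted p = 0.0122), the 1 call among 7 tested epithelial genes. Pdgfa, which encodes a ligand of Pdgfra, fell by 2.15 (edgeR adjusted p = 0.0322), the 1 call among 4 tested genes of the platelet-derived growth factor pathway. Of the coelomic epithelium markers 4 were tested and 1 was called, Lrrn4, with a log2 value of -3.45 (edgeR adjusted p = 0.00328). At E11.5 XY, 28 matrix genes were tested and 1 fell, P4ha1, a collagen prolyl hydroxylase subunit, by 1.22, and in E11.5 XX 27 were tested and 0 were called by edgeR.

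Across stages in XY, Vim was the 1 of 8 members whose ECKO effect differed between E13.5 and E11.5, where 1.20% of 14447 genes were called and 0.706% were called lower. The difference was -3.10 ± 0.67 (SE) on the log2 scale (edgeR adjusted p = 0.0296), from 0.72 at E11.5 to -2.40 at E13.5 in the separate fits, neither of which was called. It was called in 5 of 15 fits that left out 1 library, with edgeR adjusted p from 0.00427 to 0.0812. In Controls alone, 0 of 8 members were called between E13.5 and E11.5, where 31.5% of genes were. Tagln (-4.38 ± 1.68, edgeR adjusted p = 0.0521; DESeq2 adjusted p = 0.024) and Vim (-1.12 ± 0.44, edgeR adjusted p = 0.0575) were nearest to the threshold. Stage and count table cannot be told apart in these comparisons.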

How the data were processed

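Polyadenylated RNA of sorted PGCs was sequenced in bulk, and single cells with Smart-seq2, per the labels' protocols. The deposited tables hold whole-number counts per gene symbol; the submitters' processing notes name HISAT2, edgeR and mm9, without versions, and strandedness of counting is not given in the sources used here. Counts were tested with edgeR 4.0.16 (R 4.3.3; TMM, filterByExpr, quasi-likelihood test, Benjamini-Hochberg over all genes tested, threshold 0.05), with DESeq2 1.42.0 as an alternative. CPM of single genes in bulk libraries and embryo sums are TMM-scaled counts over the filtered library total, set separately in each table; those of marker sums and single cells use the plain total. E12.5 counts were summed per embryo over 127 kept cells and the 8 embryos fitted together; 65 cells (median 1717 counts) were left out, and doublets were not called. Deviations from group means used log2(CPM + 1) and 100000 permutations (scipy 1.17.1). The edgeR procedure was tested on simulated data. Same-numbered libraries did not deviate together, so replicate numbers were not taken as pairs.

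The members and gene lists were chosen with earlier results of these data known. Named genes are the 8 members, Eed, at most 4 called genes of smallest adjusted p per list and comparison, and the 3 genes most correlated with each member; individual markers were named after their values were seen. One XX cell titled ECKO is labelled wild type and was kept under its title. Methylation samples of the series were not analysed here. Alternatives were RLE scaling, no low-count filter, a replicate block, other cell and pseudocount minimums, leaving out the cells that could be the one of conflicting labels, and leaving out each library or embryo; those added after seeing the data left out the cell with 4 members and both E11.5 ECKO libraries numbered 4. A further alternative is not reported here.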

Additional observations from a re-analysis of the deposited data

Results flagged for a closer look

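Within groups of 4 libraries, 31 combinations of member and group were examined for a library far from the others by Dixon's ratio. Of these, 19 passed the 95% limit. That limit holds for normal values, whereas the ratio was taken on unlogged CPM, some near 0. The combinations also share libraries, so the count cannot be set against a chance rate. In E11.5 XY ECKO 4, Vim (162.6 CPM), Col1a1 (75.5 CPM), Col1a2 (120.4 CPM), Col3a1 (73.8 CPM) and Pdgfra (39.5 CPM) stood above the other ECKO libraries. In E11.5 XX ECKO 4 the same 5 genes did so, at 319.5, 178.3, 224.4, 358.0 and 214.5 CPM, with Tagln at 15.6 CPM and Snai1 at 9.61 CPM. Krt19 stood apart in another library, E11.5 XX ECKO 2, at 21.5 CPM. Among Controls, E11.5 XY Control 1 stood apart for Col1a2 (11.2 CPM), Col3a1 (48.2 CPM), Pdgfra (10.49 CPM) and Snai1 (0.196 CPM), E13.5 XY Control 4 for Col3a1 (10.35 CPM) and E13.5 XY Control 2 for Tagln (0.160 CPM, from 2 counts). The Snai1 and Tagln values among Controls rest on so few counts that they set 0 against nearly 0.

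The ECKO effect on Vim in XY differed between E13.5 and E11.5 by -3.10 on the log2 scale in the edgeR interaction test, with overlapping groups at E11.5 and every ECKO library below every Control at E13.5.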

How the results depend on the processing

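Without the low-count filter, 2 members were called in E11.5 XY and 1 in E11.5 XX, against 0 in each with it. At E12.5 calls were added over the sexes, so a member called in both, such as Krt19, counts for each. There were 5 such calls without the filter, against 0 with it. DESeq2 gave 3 such calls at E12.5. It called 2 members in the difference between stages and 1 between Control stages, where RLE scaling also called 1. With 1 library or embryo left out in turn, the count of members called ran from 0 to 1 in E11.5 XY and 0 to 5 in E13.5 XY. It ran from 0 to 1 in the difference between stages and from 0 to 1 between Control stages. No member was called in these omissions in E11.5 XX or in the difference between sexes. At E12.5 the calls over both sexes ran from 1 to 3. Log2 values over these omissions ran from -1.20 (without ECKO 4) to 3.55 (without Control 1) for Col3a1 and from -0.12 to 2.03 (the same libraries) for Tagln in E11.5 XY, from -0.21 (without ECKO 4) to 1.06 for Vim in E11.5 XX, and from -1.31 to 0.10 (without ECKO 1) for Col3a1 in E13.5 XY. The cause was not tested. The share of all genes called under each of these settings is not given here, so the counts of members have no background beside them.

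With the replicate number as a block, 0 members were called in E13.5 XY (edgeR adjusted p from 0.188 to 0.281 for the 4 members called without it), and Vim in E11.5 XX became -0.15. Same-numbered libraries had correlations of deviations from -0.146 to 0.169, so they share only a number.

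Of the 32 relations with library measures, 12 were called over all libraries and 0 within E11.5 XY and 0 within E13.5 XY alone, with 7 or 8 libraries each. Of these, 5 members were called with the interstitial sum, against 0 within E11.5 XY, 3 within E11.5 XX and 0 within E13.5 XY. In the shallowest library, E11.5 XX Control 1, with 415291 counts, 29 counts were of Vim and 0 to 4 of each other member.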

Other observations

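Krt8, the usual partner of Krt18 in simple epithelia, was chosen after its values were seen, as a keratin to set beside Krt19. It was present in 37 of 62 ECKO cells and 2 of 65 Control cells at E12.5, a larger share than that of Krt19. In bulk it was at 5.18 to 29.7 CPM in E11.5 XY ECKO against 0.0646 to 2.65 CPM in Controls, and at 8.62 to 16.2 CPM in E11.5 XX ECKO against 0 in all 3 Controls. At E13.5 it was at 1.95 to 12.2 CPM in ECKO against 0 to 0.719 CPM in Controls. The groups did not overlap in any of the 3 tables. Every ECKO library was also higher for 5.11% of genes with enough counts in E11.5 XY, 7.67% in E11.5 XX and 12.3% in E13.5 XY. Krt8 was called by edgeR in none of the tables (adjusted p = 0.0535, 0.0705 and 0.135). Krt18 was present in 51 of 62 ECKO cells and 24 of 65 Control cells.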
